A study of Mus musculus with 24 samples.

Results

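The subject here is the 3′ adenylated form of each mature microRNA (miRNA), counted apart from its other forms in small RNA libraries of 3T9, a mouse fibroblast line derived from embryos that grows without limit. The miRNAs were chosen by their measured counts: one was included when it had at least 1000 counts over the 21 libraries of purified labelled RNA, and when the authors' table held an entry for its 3′ A form. This gave 239 miRNAs, of 641 A-form entries and 1221 mature names in the table. Another 9 names had enough counts but no A-form entry. The measure is the A-tailed share, which is the A-form count divided by the count of all forms of the same miRNA in the same library. These counts come from the libraries described below, so the levels of the shares are given as a description. Just inside it were miR-8112 with 1013 counts and an A share of 0.395%, miR-212-3p with 1010 counts and 1.19%, and miR-340-5p with 1008 counts and 1.49%. Just outside it were miR-1947-5p with 981 counts and 2.75%, miR-1934-5p with 976 counts and 6.56%, and miR-129b-3p with 977 counts and no A-form entry.

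All 21 labelled libraries came from cells given 300 µM 4-thiouridine (4SU), a uridine analogue that is built into new RNA and can be coupled to biotin through its sulfur. The pulse lasted 3 h, and 1 mM uridine was then supplied as the chase. RNA that carried 4SU was captured at 0, 2, 4, 6, 8, 10 and 12 h of chase in each of 3 independent experiments. There were 3 controls with 1 library each: total RNA of cells that had received 4SU, total RNA of untreated cells, and the capture carried out on untreated cells, called the negative extraction here. All groups are this 1 line in the same serum medium, with no genotype difference between them.

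Adenosine can be added to the 3′ end of a mature miRNA without a template. The known enzymes are non-canonical poly(A) polymerases, chiefly GLD2 (TENT2) and PAPD5, and the exonuclease PARN can remove such tails. In liver, GLD2 is known for adenylating and stabilising miR-122. In human cells, PAPD5 and PARN have been described as acting in turn on miR-21. The other frequent tail is uridine, added by TUT4 and TUT7, and on let-7 precursors it is controlled by LIN28.

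Depth was 1133048 to 7886484 counts in the labelled libraries, and it was lower late in the chase: 3281631, 1133048 and 2533106 counts at 12 h in experiments 1, 2 and 3, against 7733333, 3019171 and 4613499 counts at 0 h. The part of depth in the results over the chase was not tested. Total RNA of 4SU-treated cells had 4525638 counts, total RNA of untreated cells 6412428, and the negative extraction 283922. The cell label was set against marker miRNAs. Of the mesenchymal list, 10 of 11 names were among the 239 miRNAs, and miR-143-3p and miR-21a-5p were among the 10 most counted. The muscle list had 0 of 4 names and the embryonic stem cell list 0 of 3, the epithelial list 1 of 10 (miR-205-5p), the blood list 2 of 9 (miR-486a-5p among them) and the neural list 2 of 4 (miR-128-3p and miR-129-5p).

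The sequences below are those on which the results turn. They are RefSeq mature sequences, from a table on GRCm38.p6, and 197 of the 239 miRNAs matched it. Capitals mark the seed, bases 2 to 8 from the 5′ end, which pairs with targets. The first set holds the miRNAs whose change over the chase is described one by one below, with both arms of miR-99b and, for its seed, miR-125b-5p beside miR-125a-5p.
miR-29a-3p: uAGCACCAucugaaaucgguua
miR-99b-5p: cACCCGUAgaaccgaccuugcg
miR-99b-3p: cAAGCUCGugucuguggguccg
miR-221-5p: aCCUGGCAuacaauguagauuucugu
miR-155-5p: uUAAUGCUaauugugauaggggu
miR-125a-5p: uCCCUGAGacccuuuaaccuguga
miR-125b-5p: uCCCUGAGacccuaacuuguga
miR-181b-5p: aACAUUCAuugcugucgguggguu
miR-191-5p: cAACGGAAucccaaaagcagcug

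In GRCm38.p6, miR-99b-5p lies at chr17:17830194-17830215 and miR-99b-3p at chr17:17830232-17830253, both on the plus strand in an intron of Spaca6, and miR-125a-5p lies at chr17:17830817-17830840, on the plus strand in an exon of the same gene. The miR-29a-3p sequence is at chr6:31062673-31062694 on the minus strand, and miR-221-5p at chrX:19146344-19146369 on the minus strand, with no annotated host gene at either. The miR-155-5p sequence is at chr16:84714143-84714165, in an exon of the non-coding RNA Mir155hg. The miR-191-5p sequence is at chr9:108568325-108568347, in an exon of the non-coding RNA 4833445I07Rik.

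The second set holds the 5p arms of the let-7 family, which share the seed GAGGUAG. All 14 names of the family among the 239, with 3p arms of other seeds, held 50.4% of all A-form counts, against 22.9% of all counts.
let-7a-5p: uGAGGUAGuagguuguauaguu
let-7b-5p: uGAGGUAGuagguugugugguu
let-7c-5p: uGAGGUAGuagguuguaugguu
let-7d-5p: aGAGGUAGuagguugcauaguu
let-7e-5p: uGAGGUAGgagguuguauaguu
let-7f-5p: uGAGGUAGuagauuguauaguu
let-7g-5p: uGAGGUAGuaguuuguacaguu
let-7i-5p: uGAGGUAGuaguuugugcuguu
miR-98-5p: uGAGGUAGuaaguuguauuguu

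The third set holds pairs of relatives with the same seed and unlike A shares.
miR-25-3p: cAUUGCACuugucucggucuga
miR-92a-3p: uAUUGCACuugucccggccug
miR-27b-3p: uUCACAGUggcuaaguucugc
miR-27a-3p: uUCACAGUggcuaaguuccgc
miR-221-3p: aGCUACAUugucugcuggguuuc
miR-222-3p: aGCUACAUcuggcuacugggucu
miR-181a-5p: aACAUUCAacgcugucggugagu

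Of the 248 names with at least 1000 counts, 239 had an A-form entry, which was a condition for being included. Their A shares differed by orders of magnitude, and 99 of the 239 had under 100 A-form counts. Over the labelled libraries the 239 miRNAs had 3383842 A-form counts, 4.30% of the counts, and 6 of them had 0 A-form counts (miR-214-5p, miR-125b-2-3p, miR-148b-5p, miR-486b-3p, miR-30b-3p and miR-92a-1-5p). The median miRNA had a mean A share of 1.69%, with quartiles of 0.354% and 5.67%. The mean share was under 0.1% in 30 miRNAs, 0.1 to 1% in 65, 1 to 5% in 78, 5 to 10% in 34, 10 to 20% in 21 and at least 20% in 11. The mean A share was above the mean U share in 153 miRNAs and below it in 85. An added U has the letter of the template where the next hairpin base is U. The median U share was 0.0327% in those 61 miRNAs, against 1.20% where that base is A, 1.72% for C and 1.25% for G. The part of this in the split was not tested.

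**Figure D1:**
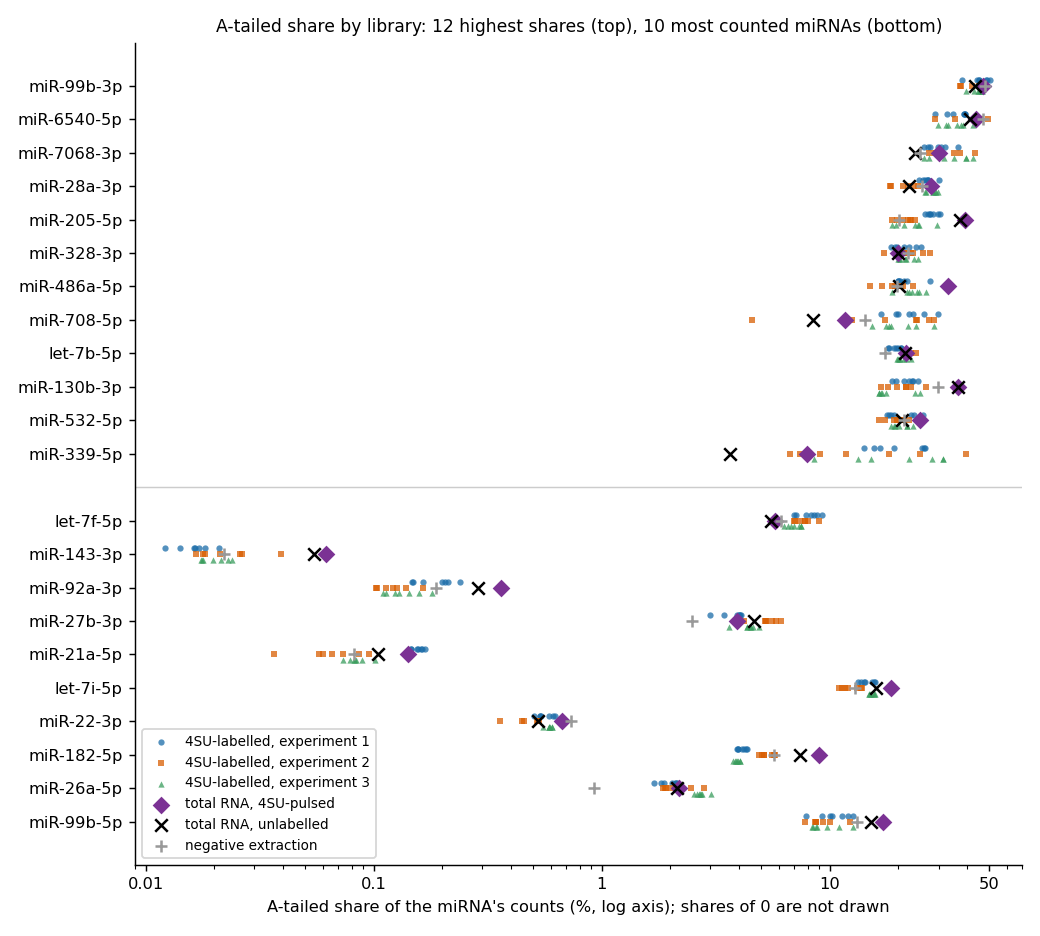
A-tailed share (%, log axis) in each library for the 12 miRNAs with the highest mean share (top block) and the 10 with the most counts (bottom block). Small symbols are the 21 labelled libraries by experiment, and large symbols the 3 control libraries. The most counted miRNAs run between 0.0201% (miR-143-3p) and 14.1% (let-7i-5p) in mean share.

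The highest shares were on miRNAs of low or middling abundance. The passenger arm miR-99b-3p had an A tail on 44.3 ± 3.60% of its counts (SD over 21 libraries). The lowest value was 37.4%, the median 45.2% and the highest 50.4%. Its A-form counts thus outnumbered the counts of its canonical form, at 20.2%. The next were miR-6540-5p at 38.0 ± 5.95%, miR-7068-3p at 32.5 ± 5.52%, miR-28a-3p at 25.8 ± 3.42% and miR-205-5p at 24.2 ± 3.77%. On miR-7068-3p, a miRNA read from an exon of Cherp, U tails were higher still, at 48.8%. The other miRNAs among the 12 highest were miR-328-3p (21.9%), miR-486a-5p (21.3%), miR-708-5p (21.0%), let-7b-5p (20.8%), miR-130b-3p (20.6%), miR-532-5p (20.3%) and miR-339-5p (19.6%). Of these, miR-339-5p had 1086 counts and shares between 6.67% and 39.6%, and miR-708-5p had 2861 counts and shares between 4.55% and 29.9%, so their levels are the least certain.

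Among the 10 most counted miRNAs, 4 had mean shares under 1% and 6 had shares above 2%. In miR-143-3p, known from smooth muscle and mesenchymal cells, A tails made up 0.0201 ± 0.00569% of 8228074 counts, beside U tails on 10.2%. The profibrotic miR-21a-5p, whose mature sequence is embedded in an exon of Vmp1, had an A share of 0.103 ± 0.0413% and a templated 3′ extension on 65.1% of its counts. In miR-92a-3p, of the oncogenic miR-17~92 cluster, it was 0.150 ± 0.0389%, and in miR-22-3p 0.552 ± 0.0701%. The higher ones were miR-26a-5p at 2.29 ± 0.399%, miR-182-5p at 4.45 ± 0.674%, miR-27b-3p at 4.51 ± 0.798%, let-7f-5p at 7.61 ± 0.811%, miR-99b-5p at 9.84 ± 1.57% and let-7i-5p at 14.1 ± 1.54%. In miR-21a-5p the 3 experiments stood apart: at 12 h the shares were 0.161%, 0.0955% and 0.102%, and at 0 h 0.168%, 0.0579% and 0.0889%, with experiment 1 the highest at both times.

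A few miRNAs carried most A-tailed reads. let-7f-5p held 19.2% of all A-form counts and let-7i-5p 18.5%, followed by miR-27b-3p (6.80%), miR-151-3p (6.32%) and miR-99b-5p (6.01%). The first 5 together held 56.8% of the A-form counts. The first 10 held 74.9% of the A-form counts, against 37.8% of all counts. Across the 239 miRNAs, Spearman's rho of the mean A share was 0.204 with abundance and 0.296 with the mean U share. These are descriptions over miRNAs measured in the same libraries.

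Shares were not uniform within families. The let-7 and miR-98 family, which restrains growth genes, had 14 names among the 239, with a median mean share of 7.12%. Its abundant 5p members ran from let-7d-5p at 5.09 ± 0.645% and let-7c-5p at 6.62 ± 0.937% to let-7g-5p at 11.2 ± 1.84%, let-7i-5p at 14.1 ± 1.54% and let-7b-5p at 20.8 ± 1.52%. Its rarer 3p arms were low, with 0.106% in let-7b-3p and 0.0390% in miR-98-3p, on 4 and 1 A-form counts. U tails of let-7f-5p were at 0.000710%. Its next hairpin base is G at the Mirlet7f-1 locus and U at Mirlet7f-2, where an added U has the letter of the template.

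Other relatives with the same seed differed more. In miR-25-3p, of the miR-106b~25 cluster in an exon of Mcm7, the share was 6.84 ± 0.746%, against 0.150 ± 0.0389% in miR-92a-3p. In miR-27b-3p it was 4.51 ± 0.798%, against 0.349 ± 0.113% in miR-27a-3p. In miR-221-3p, which targets the cell cycle inhibitor p27, it was 1.11 ± 0.228%, against 0.0245 ± 0.0157% in miR-222-3p. In miR-181b-5p it was 0.898 ± 0.214%, against 0.0710 ± 0.0228% in miR-181a-5p. The SDs are over 21 libraries, and in each pair the ranges over these libraries did not overlap.

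Arm and end sequence were compared without a test, since relatives share sequence. The median mean share was 1.65% in 124 5p arms and 1.85% in 111 3p arms. In 56 hairpins with both arms among the 239, the 5p arm was higher in 27 and the 3p arm in 28. The more abundant arm was higher in 31, with a median of 3.72% against 0.997% in the less abundant arm. By last base of the mature sequence, the median was 4.54% for G (49 miRNAs), 1.77% for A (37), 1.13% for U (68) and 1.10% for C (43). By the next base of the hairpin, it was 2.23% for G (50), 1.97% for U (61), 1.38% for C (33) and 0.689% for A (28). These groups leave out 8 miRNAs whose loci differ in that base, with a median of 0.608%. They also leave out 17 with no next base given, among them miR-99b-3p, whose median of 5.67% was the highest. Where that next base is A, an added A has the same letter as the template. In those 28 miRNAs the entry for templated 3′ extension had a median of 13.1%, and in the 61 with a next U the median U share was 0.0327%, against 0.432% over all 239.

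Over the chase, the A-tailed form became a larger part of its own miRNA in a subset of miRNAs, led by miR-29a-3p, miR-99b-5p and miR-221-5p, and a smaller part in miR-191-5p. More A-tailed molecules and fewer molecules of the other forms cannot be told apart in a share, nor can fewer cells and less RNA per cell in bulk RNA. Of the 140 miRNAs with at least 100 A-form counts, the A share rose with chase time in 20 and fell in 1, by edgeR's quasi-likelihood test at an adjusted p under 0.05. The adjustment was over all 1189 isoform entries tested, of which 4.37% rose and 3.53% fell. The slope was positive in 102 of the 140 and negative in 38, with a median of 0.020 log2 per hour, against 0.00047 over all 1189 entries. With the experiment as a block, 37 rose and 4 fell, where 11.4% of all entries rose and 9.76% fell, and all 21 calls of the unblocked fit were kept. The slopes of all 21 had the same sign in each of the 3 experiments. Without experiment 3 the unblocked fit called 10, all upward. A rise was not particular to A tails. Of 48 C-form entries, 39 had a positive slope, with a median of 0.030 log2 per hour, and 2 rose and 0 fell. With the block 13 of these rose and 1 fell. Of 154 entries with mixed 3′ additions, 96 had a positive slope, with a median of 0.0094. Of them 11 rose and 1 fell (23 and 3 with the block). The 47 G-form entries had a median of 0.0013 and 0 calls without the block.

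**Figure D2:**
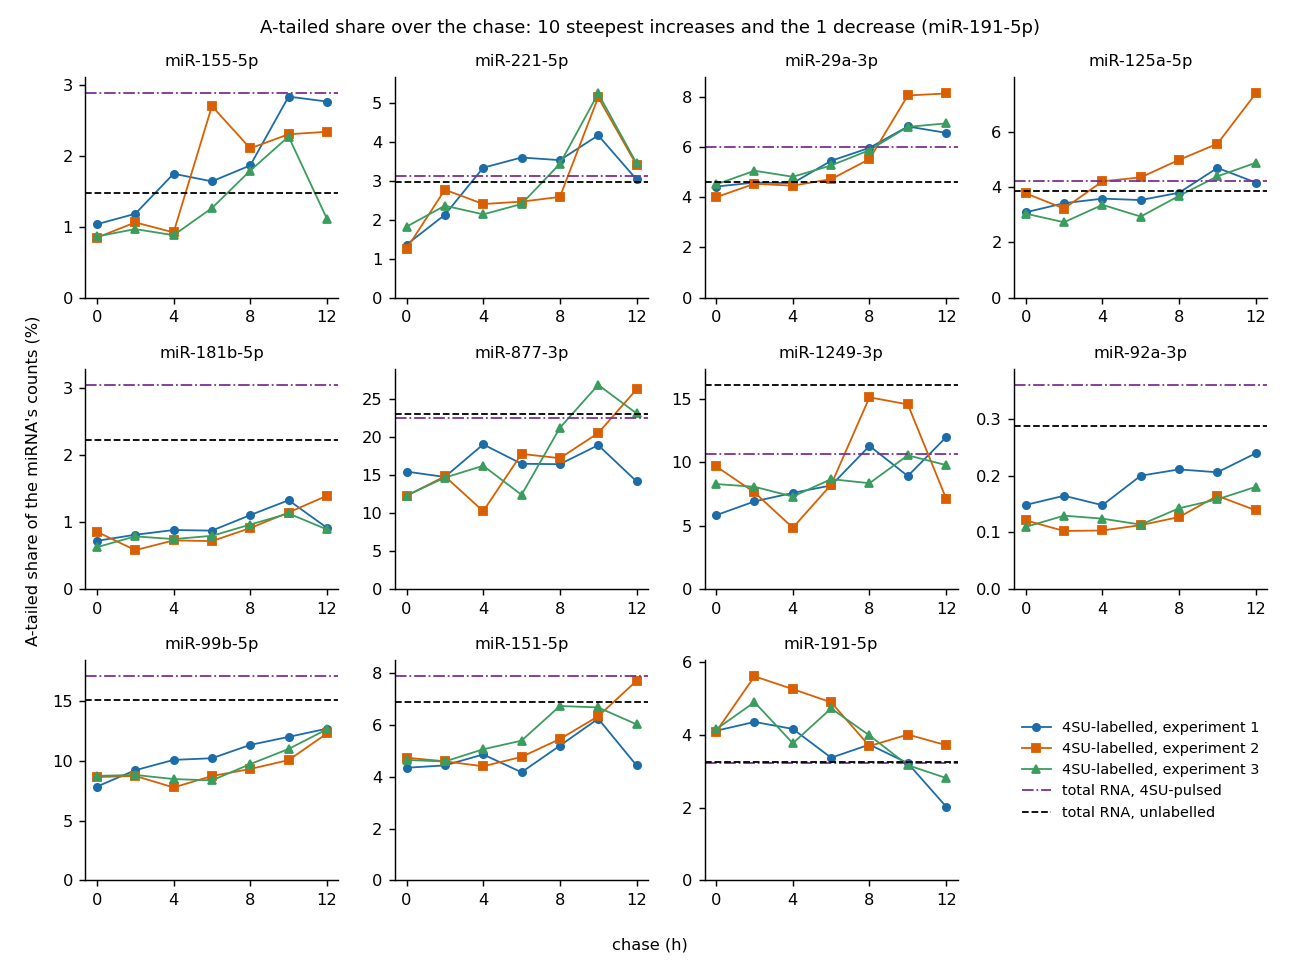
A-tailed share (%) against hours of chase for the 10 miRNAs with the steepest significant increases and for miR-191-5p, with 1 line per experiment. Horizontal lines are the single total RNA libraries. In miR-29a-3p the 12 h values of 6.57 to 8.13% lie above the 0 h values of 4.00 to 4.51%.

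The miR-29 family represses collagens and other matrix genes in fibroblasts. The A share of miR-29a-3p was 6.57%, 8.13% and 6.94% at 12 h in experiments 1, 2 and 3, against 4.43%, 4.00% and 4.51% at 0 h. The groups did not overlap, and the means in between were 4.73% at 2 h, 4.61% at 4 h, 5.15% at 6 h, 5.79% at 8 h and 7.23% at 10 h. Its slope was 0.067 ± 0.0067 log2 per hour (SE, adjusted p = 9.63e-07), and the 12 h share was 1.67-fold the 0 h share (adjusted p = 0.000452).

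In miR-99b-5p, whose family targets the kinase mTOR, the A share was 12.7%, 12.3% and 12.6% at 12 h, against 7.85%, 8.64% and 8.74% at 0 h. All 12 h values lay above all 0 h values, and at 4 h experiment 1 was at 10.1%, with 7.77% and 8.48% in experiments 2 and 3. The slope was 0.045 ± 0.0066 log2 per hour (adjusted p = 8.83e-05) and the 12 h share 1.49-fold the 0 h share (adjusted p = 0.00421). Its partner arm miR-99b-3p had 48.4%, 46.0% and 46.4% at 12 h, against 38.0%, 42.0% and 39.4% at 0 h, also without overlap. That slope was 0.021 ± 0.0051 log2 per hour (adjusted p = 0.0130), and the call was lost without experiment 1 or without experiment 3, with an adjusted p of up to 0.158.

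The A share of miR-125a-5p, from the same locus as miR-99b, was 4.17%, 7.39% and 4.88% at 12 h, against 3.09%, 3.77% and 3.04% at 0 h. The groups did not overlap, and experiment 2 had the highest value at both times. The slope was 0.064 ± 0.012 log2 per hour (adjusted p = 0.00139). The third miRNA of that locus, let-7e-5p, had a slope of -0.0053 (adjusted p = 0.897), and did not pass the test. In miR-125b-5p, with the seed of miR-125a-5p the slope was 0.019 ± 0.0055 log2 per hour (adjusted p = 0.0337), a call that was lost in 17 of 39 other settings.

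The A share of miR-221-5p moved most over the whole chase among those called between 12 h and 0 h. It was 3.04%, 3.41% and 3.45% at 12 h, against 1.36%, 1.25% and 1.82% at 0 h. The groups did not overlap. At 2 h the values were 2.13%, 2.77% and 2.36%, and the highest mean was 4.85 ± 0.594% at 10 h. Its slope was 0.11 ± 0.018 log2 per hour (adjusted p = 0.000608), and the 12 h share was 2.22-fold the 0 h share (adjusted p = 0.0104). The 12 h call was lost in 7 of 33 other settings, among them leaving out each experiment in turn, against 2 of 33 for miR-29a-3p and for miR-99b-5p. These values rest on 804 A-form counts in 21 libraries.

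In miR-155-5p, a regulator of immune cells, the A share was 2.77%, 2.34% and 1.11% at 12 h, against 1.04%, 0.847% and 0.864% at 0 h. The groups did not overlap, but the 12 h value of experiment 3 was close to the 0 h values. The slope of 0.12 ± 0.021 log2 per hour was the steepest among the 21 called (adjusted p = 0.00102), on 658 A-form counts. In this miRNA the canonical share rose too, by 0.065 log2 per hour (adjusted p = 2.27e-05), while its templated 3′ extension fell by 0.068 (adjusted p = 5.02e-07), and against the canonical count alone the A slope was not called (adjusted p = 0.183).

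In miR-181b-5p, known from lymphocyte development, the A share was 0.913%, 1.39% and 0.888% at 12 h, against 0.718%, 0.853% and 0.624% at 0 h, without overlap. The slope was 0.061 ± 0.012 log2 per hour (adjusted p = 0.00175). The related miR-181a-5p had a slope of 0.042 (adjusted p = 0.293) and miR-181d-5p one of 0.061 (adjusted p = 0.224), and neither passed the test.

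Of the remaining steep slopes, miR-877-3p had 0.055, miR-1249-3p 0.055, miR-92a-3p 0.051 and miR-151-5p 0.044 log2 per hour, with adjusted p of 0.0198, 0.0372, 0.0439 and 0.00574. In all 4 the 12 h and 0 h values overlapped. The calls for miR-92a-3p were lost in 21 of 39 other settings, and those for miR-1249-3p in 15. The other miRNAs that rose were let-7c-5p, let-7d-5p, let-7g-5p, miR-23a-3p, miR-25-3p, miR-151-3p, miR-183-5p and miR-532-5p, with slopes between 0.026 and 0.041 log2 per hour. Calls for miR-29a-3p, miR-99b-5p, miR-221-5p, miR-125a-5p and miR-181b-5p held in all 39 settings.

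Without a block, the 1 share that fell was that of miR-191-5p, a common miRNA of proliferating cells. It was 2.02%, 3.71% and 2.81% at 12 h, against 4.11%, 4.08% and 4.15% at 0 h, without overlap. The means were 4.94 ± 0.627% at 2 h and 4.39 ± 0.769% at 4 h, so the share at 2 h was not below that at 0 h. The slope was -0.052 ± 0.013 log2 per hour (adjusted p = 0.0164), and it was not called without experiment 1, without experiment 3 or without the 12 h libraries. With the block 4 shares fell, among them those of miR-191-5p, miR-16-5p and miR-18a-3p, where 9.76% of all entries fell. The mean share of miR-18a-3p was 3.20% at 12 h and 5.03% at 0 h, without overlap.

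Between 12 h and 0 h alone, 3 of the 140 shares rose and 0 fell, against 0.925% and 0.589% of all entries; 30 had an unadjusted p under 0.05, DESeq2 called 4 upward, and limma called 3 upward and 1 downward. They were miR-29a-3p, miR-99b-5p and miR-221-5p. With the experiment as a block 19 rose and 2 fell, where 5.80% and 5.38% of all entries did. Without experiment 3, or with only the 6 libraries compared, none of these calls was left in the unblocked fit, and without experiment 3 the adjusted p were 0.0751, 0.180 and 0.171 for the 3 miRNAs in that order. All 12 h values lay above all 0 h values in 23 of 140 and below in 5, against 9.17% and 6.81% of all entries. Between 2 h and 0 h, edgeR, DESeq2 and limma called 0, where 0% of all entries were called, and 3 had an unadjusted p under 0.05. With the block 1 was called, miR-671-3p, with 2.00%, 2.08% and 2.70% at 2 h and 0.920%, 1.06% and 1.67% at 0 h, a log2 change of 0.92 and an adjusted p of 0.0118 with the block and 0.697 without it in edgeR. With the block 0.336% of all entries rose and 0.0841% fell.

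By family, cluster or list, the counts below stand beside 4.37% of all entries that rose and 3.53% that fell (11.4% and 9.76% with the block). Of let-7 and miR-98, 3 of the 10 tested members rose and 0 fell (7 rose with the block), with 9 positive slopes and a median slope of 0.029 log2 per hour. In the abundant let-7f-5p the slope was 0.0052 (adjusted p = 0.822) and in let-7i-5p 0.015 (adjusted p = 0.321, with the block 0.00655). A list of miR-99, miR-100, miR-10 and miR-125 names is not 1 family, since miR-125 has another seed, and it includes 3p arms. Of this list 4 of 7 rose (5 with the block). They were miR-99b-5p, miR-99b-3p, miR-125a-5p and miR-125b-5p, all but the last from the same locus. In this list miR-100-5p had a slope of -0.014 (adjusted p = 0.468). Of the miR-17~92 and miR-106b~25 clusters, 2 of 9 rose (3 rose and 1 fell with the block). Of the miR-23, miR-27 and miR-24 clusters 1 of 5 rose, of miR-221 and miR-222 1 of 4 (2 with the block), of miR-181 1 of 3, and of miR-29 1 of 1.

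In the remaining families few or no calls were made. In the miR-30 family 0 of 6 passed, and in the miR-26 family 0 of 2. In the miR-15 and miR-16 family 0 of 6 passed, but with the block miR-15b-3p rose and miR-16-5p fell. In the mesenchymal list 0 of 6 passed, and with the block miR-199a-3p rose (adjusted p = 0.00168), a name whose mature sequence is also that of miR-199b-3p. The miR-34 family had 0 tested members. Of the names reported elsewhere as substrates of GLD2 or PAPD5, miR-122 was not among the 239, and miR-21a-5p had a slope of 0.014 (adjusted p = 0.893). The blood marker miR-486a-5p had a slope of 0.028 (adjusted p = 0.0577, with the block 0.00749), the epithelial marker miR-205-5p one of 0.010 (adjusted p = 0.724), and the neural list 0 calls among 2.

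U tails were tested in the same fit, and more of them fell than rose. Of 115 U-form entries tested, 1 rose and 10 fell, where 4.37% of all entries rose and 3.53% fell. With the block 2 rose and 22 fell, where 11.4% and 9.76% of all entries did. The U-form entries had a median slope of -0.014 log2 per hour. Both tails could be tested in 98 miRNAs. The A share rose while the U share fell in 3 of them: miR-99b-5p, with a U slope of -0.055 (adjusted p = 0.000705), miR-151-3p, with -0.028 (adjusted p = 1.86e-05), and miR-221-5p, with -0.076 (adjusted p = 0.00980). A and U shares of a miRNA have the same denominator, and its part in these opposite slopes was not tested.

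**Figure D3:**
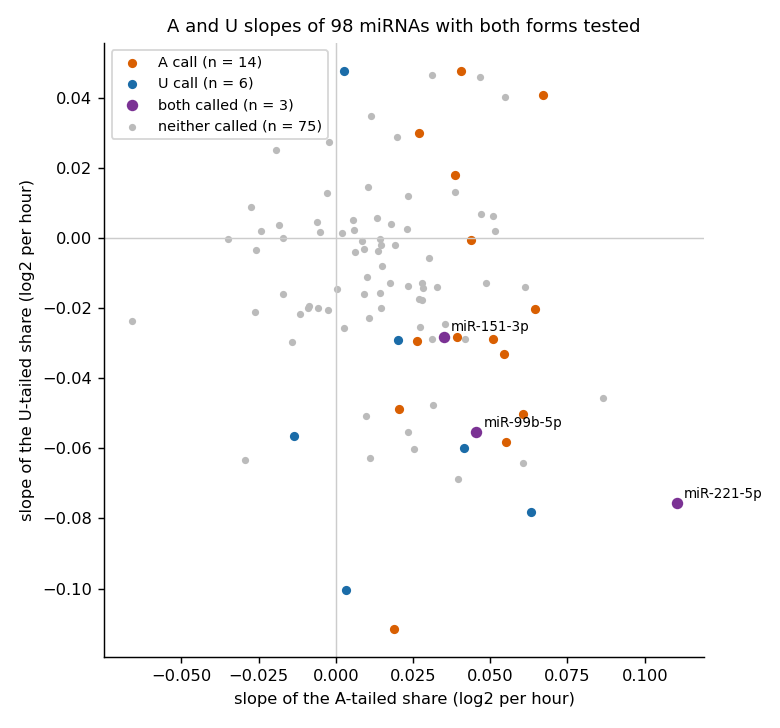
Slope of the A-tailed share (x axis) against slope of the U-tailed share (y axis), both in log2 per hour of chase, for 98 miRNAs with both forms tested. Colours mark which slope passed an adjusted p of 0.05: the A slope only in 14, the U slope only in 6, both in 3 (named) and neither in 75.

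As part of the whole labelled pool, in place of the own miRNA, A-tailed forms rose in 14 of 140 and fell in 1, where 3.87% of all entries rose and 5.72% fell. With the block 38 rose and 9 fell (12.8% and 15.3% of all entries). With total counts as the scaling the split was 8 up and 2 down. The miRNA whose A form fell was miR-100-5p, by 0.081 log2 per hour (adjusted p = 0.00349), while its A share did not pass the test. Of the 20 miRNAs with a rising A share, 7 also rose as part of the pool, including miR-29a-3p (0.10 log2 per hour, adjusted p = 0.000223), miR-155-5p (0.097, adjusted p = 0.0103) and miR-92a-3p (0.12, adjusted p = 9.03e-07).

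Summed over the 239 miRNAs, the A-tailed share of the pool was nearly level. It was 4.37 ± 0.198% at 0 h, 4.38 ± 0.326% at 2 h, 4.20 ± 0.275% at 4 h, 4.11 ± 0.241% at 6 h, 4.35 ± 0.175% at 8 h, 4.61 ± 0.259% at 10 h and 4.55 ± 0.313% at 12 h (SD, n = 3 each). The difference between 12 h and 0 h was 0.185 points, less than the spread of 0.262 points between experiments. The median over miRNAs differed by -0.018 points. When each miRNA was given its mean weight over the labelled libraries, an option added after the data were seen, the share was 4.81 ± 0.245% at 12 h and 4.21 ± 0.121% at 0 h. The pooled U share was 2.24 ± 0.185% at 12 h and 2.78 ± 0.103% at 0 h.

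**Figure D4:**
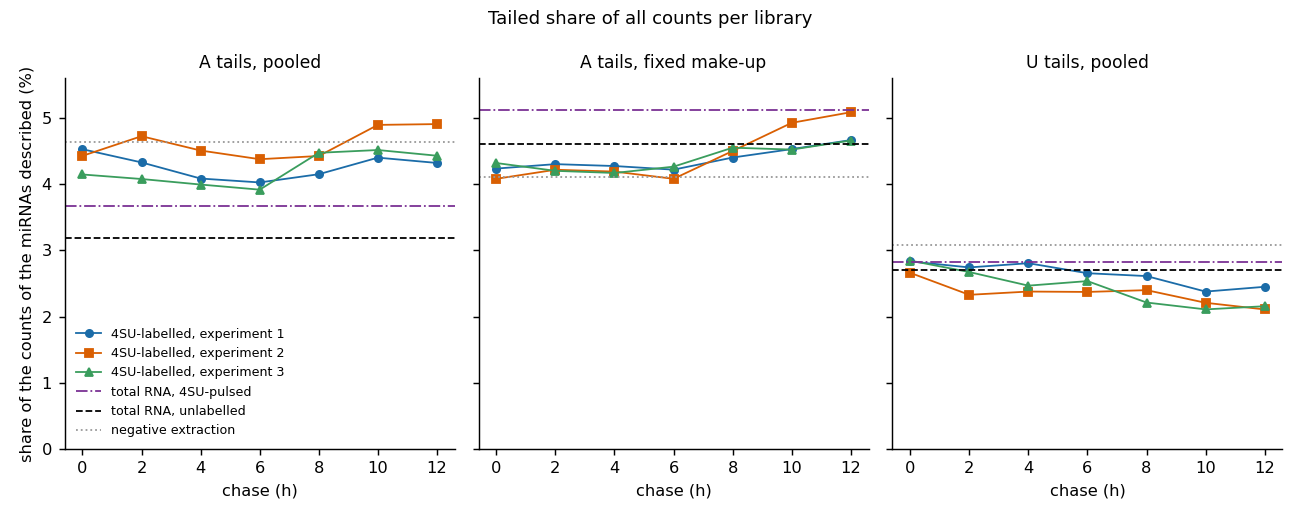
Share (%) of all counts of the 239 miRNAs that are A-tailed (left), A-tailed with each miRNA at its mean weight (middle) and U-tailed (right), against hours of chase, with 1 line per experiment and horizontal lines for the 3 control libraries. With fixed weights all 3 experiments are higher at 12 h (4.66 to 5.09%) than at 0 h (4.08 to 4.32%).

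The order of A shares among miRNAs was close in labelled and total RNA. Over the 128 miRNAs with a mean of at least 10 A-form counts per labelled library, Spearman's rho with total RNA of untreated cells was 0.937 for the 12 h means and 0.935 for the 0 h means. Between the total RNA libraries it was 0.969, and with the negative extraction, at its low depth, 0.720 for the 0 h means. In the negative extraction 19 of the 128 had 0 A-form counts, and in each total RNA library 0 of the 128. These are descriptions with no test, since each control is 1 library, and both total RNA libraries carry another code in the table's second header line than the labelled ones.

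Shares in labelled RNA were more often below than above those in total RNA at the start of the chase. Against total RNA of untreated cells, all 3 labelled libraries lay above in 39 of 140 miRNAs and below in 41 at 12 h, where 26.2% and 27.2% of all entries did so. At 0 h they lay above in 20 and below in 71, against 27.8% and 31.5% of all entries. Against total RNA of 4SU-treated cells, 28 lay above and 57 below at 12 h (28.9% and 30.7% of all entries), and 21 above and 81 below at 0 h (32.0% and 33.6%). Against the negative extraction, 72 lay above and 28 below at 12 h (40.6% and 28.4%), and 65 above and 41 below at 0 h (45.8% and 29.8%). At its depth of 283922 counts, 19 of 128 miRNAs had 0 A-form counts there. Any labelled library with an A-form count lies above such a share. For U-tailed forms against total RNA of untreated cells, 28 of 115 lay above and 28 below at 12 h, and 48 above and 23 below at 0 h.

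**Figure D5:**
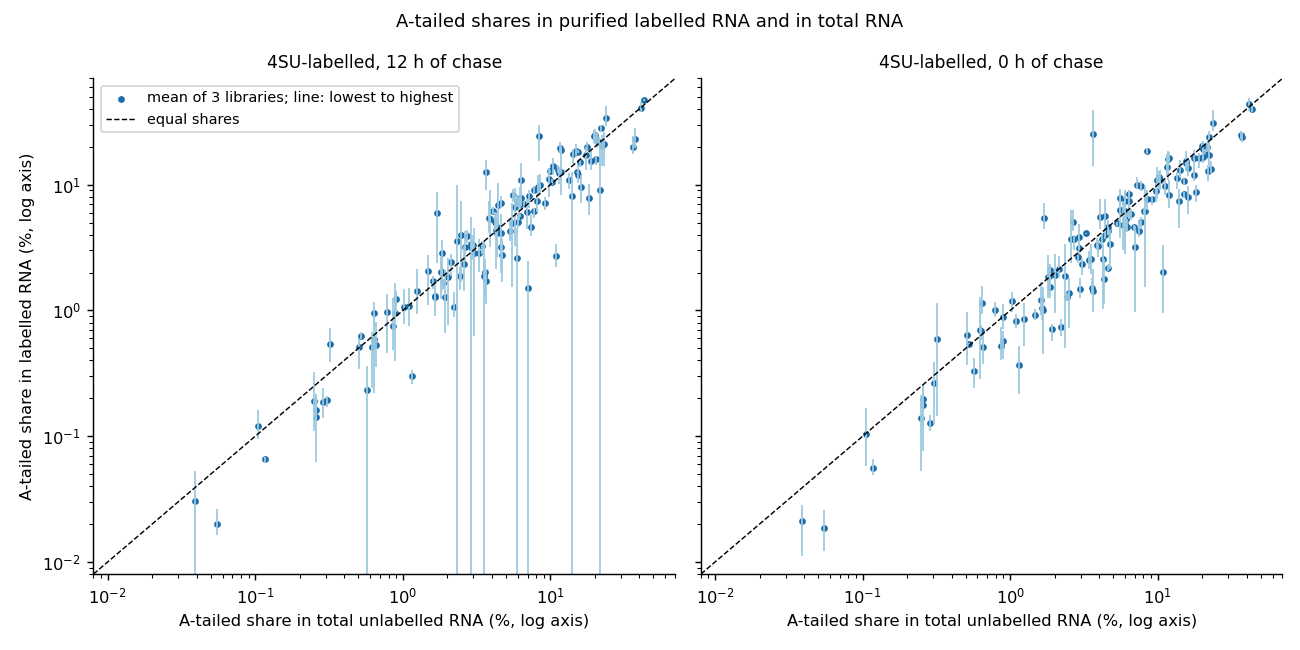
A-tailed share in labelled RNA at 12 h (left) and 0 h (right) against total RNA of untreated cells, for 128 miRNAs, both in % on log axes. Points are means of 3 labelled libraries and vertical lines run from the lowest to the highest, with a line that meets the lower edge where a library had a share of 0. At 0 h more of the miRNAs lie below the line of equal shares than above it.

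Of the miRNAs whose share rose, some stayed below total RNA and some passed it. In miR-99b-5p the 12 h libraries at 12.3 to 12.7% were still below total RNA, with 17.1% in 4SU-treated cells (95% exact binomial interval 16.8 to 17.3%) and 15.1% in untreated cells (14.8 to 15.4%). In miR-181b-5p the 12 h values of 0.888 to 1.39% stood against 3.04% and 2.22%. In miR-29a-3p the 12 h values of 6.57 to 8.13% were above both, at 5.98% (5.72 to 6.25%) and 4.61% (4.43 to 4.80%), whereas the 0 h values were below both. The intervals cover counting error only.

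Some miRNAs lay on the same side of both total RNA libraries in all 21 labelled libraries. In miR-130b-3p the labelled libraries had 16.4 to 26.6%, with 17.7 to 24.3% at 12 h and 22.9 to 26.6% at 0 h, against 36.6% in total RNA of 4SU-treated cells and 36.5% in that of untreated cells. In miR-143-3p they had 0.0121 to 0.0394%, against 0.0616% and 0.0548%, and in miR-182-5p 3.75 to 5.74%, against 9.01% and 7.42%. The opposite held in let-7f-5p, with 6.27 to 9.23% against 5.75% and 5.54%. In miR-486a-5p the total RNA libraries themselves differed, with 32.9% (30.1 to 35.8%) in 4SU-treated cells and 20.2% (18.1 to 22.4%) in untreated cells.

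Summed over all 239 miRNAs the order was the opposite, and the make-up of the libraries differed as well. The pooled A share was 4.55% at 12 h and 4.37% at 0 h in labelled RNA, 3.66% in total RNA of 4SU-treated cells, 3.18% in that of untreated cells and 4.64% in the negative extraction. miRNAs with a mean share under 1% took 44.1, 46.8 and 45.6% of the counts at 12 h and 38.7, 39.0 and 44.6% at 0 h, against 59.9% and 60.8% in total RNA of 4SU-treated and of untreated cells and 32.5% in the negative extraction. With fixed weights the shares were 4.81% at 12 h, 4.21% at 0 h, 5.12% in total RNA of 4SU-treated cells, 4.60% in that of untreated cells and 4.10% in the negative extraction.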

How the data were processed

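Small RNA libraries were prepared with the Illumina TruSeq kit, per the labels' protocols, and per the submitters' processing notes CASAVA 1.8.0 was used. The authors deposited one table of read counts, whole numbers with no normalization, per mature miRNA and isoform class (7129 entries, 20 classes). The aligner, annotation, treatment of reads that match several miRNAs and class definitions: not given in the sources used here. In 1 case an identical repeated entry was removed, and entries that total others were used once, since 23088 of 23088 cells compared were equal. The reads carry no molecular identifiers, so intervals and floors cover counting error only.

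Shares were tested with edgeR 4.0.16 (R 4.3.3) by the quasi-likelihood test on counts, with the log count of the miRNA in the library as offset, over the 1189 entries with at least 100 counts of miRNAs with at least 1000, in all 21 labelled libraries, with p-values adjusted by Benjamini and Hochberg's method and called under 0.05. The coefficient is the log2 change of the share per hour, or between times. The standard error is the size of the change divided by the root of the F statistic. The position in the pool used TMM library sizes instead. DESeq2 1.42.0 and limma 3.58.1 were alternatives. Only the slope fit without a block was tried on simulated counts. These were drawn separately for each library with no effect of experiment, so the pairing of libraries described below is not covered.

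Experiment numbers come from the labels and pair the libraries: deviations from time-point means correlated at 0.112 to 0.440 in 63 of 63 pairs of one experiment, against -0.285 to 0.106 in 126 pairs of different experiments. At each time the deviations cancel out over the 3 experiments, so the low values between experiments are not separate evidence of pairing. For the main results, counts of calls with the experiment as a replicate block stand beside those without it. The adjusted p of single miRNAs are from the fit without a block unless stated. Not all miRNAs called only with the block are named. Among labelled libraries the experiment coincides with a part of a code in the table's second header line (S7915, S8723 or S8724). The negative extraction also carries S7915, and in experiment 1 the code starts with PC4 at 0 h and with PCG later. The part of these codes in the results was not tested. The p-values without the block measure the scatter of all labelled libraries around the fit, each taken as a separate observation. Those with the block measure the scatter left within experiments. Neither measures a spread between the 3 experiments alone. The 3 control libraries have no replicate and no test; their intervals are exact binomial at 95%.

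The miRNAs, the family and marker lists and the tests were chosen with earlier results of these data known. Named were the 12 highest shares with a mean of at least 10 A-form counts per library, the 10 most counted miRNAs, the 10 steepest slopes each way with one sign in all experiments, those called between times, list members, and the 3 names on each side of the limit of 1000 counts. Other called miRNAs, relatives with the same seed and the names without A-form counts were added after their values were seen.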

Additional observations from a re-analysis of the deposited data

How the results depend on the processing

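The count of miRNAs whose A share changed with chase time, 21 in the fit without a block, was 16 to 26 under another tool, filter, denominator or set of entries (limma 16, DESeq2 26), and 10 to 23 when 1 library or experiment was left out, with 10 without experiment 3. With the replicate block it was 41. Adding the block gave 36 without the 0 h libraries, 33 without the 12 h libraries, 27 without experiment 1, 38 without experiment 2 and 34 without experiment 3, and the last 4 were chosen after seeing the data. Without a block the counts were 17 without the 0 h libraries and 14 without the 12 h libraries. No called miRNA changed sign in any of these settings. Between 12 h and 0 h, the 3 calls became 21 with the replicate block, 0 with only the 6 libraries compared, and 0 to 7 when 1 library or experiment was left out, with 0 without experiment 3 and 7 without the 12 h library of experiment 1. Between 2 h and 0 h, the 0 calls became 1 with the replicate block and stayed 0 to 0 when 1 library or experiment was left out. For the A forms as part of the pool, the 15 calls became 47 with the replicate block, 30 with DESeq2, 9 with no minimum on the entry, and 4 to 27 when 1 library or experiment was left out (27 without experiment 2, 4 without experiment 3). The pooled difference of 0.185 points between 12 h and 0 h became 1.29 points against the canonical count, 0.593 points with fixed weights, and 0.0380 to 0.382 points when 1 experiment was left out. The causes were not tested. Depth limits the rarer miRNAs: 99 of the 239 had under 100 A-form counts and were not tested, and 3 counts correspond to 0.380 to 2.65 CPM in the labelled libraries and 10.6 in the negative extraction.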
